A study of Homo sapiens with 60 samples.

Results

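Mitochondrial ribosomal protein genes were followed at the level of messenger RNA in HT29, an established line from a human colon tumour, which had been exposed for 24 h to herbal extracts or to vehicle. The genes were chosen by name: protein-coding genes whose symbol starts with MRPL or MRPS followed by a number, with a mean of at least 1 CPM (counts scaled to a common library size) over the 60 libraries. Of 164 symbols with this pattern in the table of 60675 genes, 78 were protein-coding, and all 78 passed both the CPM minimum and the filter of the test. The remaining symbols were 79 pseudogenes and 7 other non-coding genes. By the protein each encodes, 51 of the 78 genes belong to the large subunit and 26 to the small subunit. MRPS30 and MRPS18A count with the large subunit because their proteins sit there. MRPS36 carries the family's name but encodes a component of the 2-oxoglutarate dehydrogenase complex, so it is in the 78 and in neither subunit.

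The mitochondrial ribosome translates the few proteins that mitochondrial DNA encodes, all of them parts of the respiratory chain and ATP synthase. Its RNAs come from mitochondrial DNA, but its proteins are encoded in the nucleus, made in the cytosol and imported, so that 2 genomes have to be expressed together. Compared with its bacterial relatives it holds less RNA and more protein: some of its proteins have bacterial homologues and others occur only in mitochondria. Colon carcinoma cell lines such as HT29 use both glycolysis and oxidative phosphorylation.

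High, medium and low dose stand for 500, 100 and 20 µg/mL of a hot-water extract. Of the 7 extracts 4 came from single herbs: citrus peel (Citri Unshius Pericarpium), Cimicifugae Rhizoma, Bupleuri Radix and aconite (Aconiti Lateralis Radix Preparata). The mixed formulas were Banhasasim-tang, Bojungikgi-tang and Yijung-tang. Vehicle was 0.1% DMSO per the sample labels and 2% per the design text. Vehicle and 6 of the extracts at each dose had 3 libraries (19 groups, 57 libraries), and Bojungikgi-tang had 1 library per dose. Whether the replicates were grown as separate cultures is not said, so the p-values refer to the spread among these libraries of 1 cell line and that spread may be technical. Library codes put vehicle in a set of its own (B1), citrus peel with Cimicifugae Rhizoma (set 5), Bupleuri Radix with aconite (set 6), Yijung-tang with Banhasasim-tang (set 7) and Bojungikgi-tang alone (set 8). A difference from vehicle therefore cannot be told apart from a difference between sets, whereas doses of 1 extract share a set.

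Libraries held 10.35 to 40.05 M counts with a median of 23.83 M. The epithelial genes EPCAM, CDH1, KRT8, KRT18, KRT20 and VIL1 were at 131 CPM or more in every library, whereas CDX2 (4.21 to 6.87 CPM), CEACAM5 (3.94 to 10.8 CPM) and CDX1 (0.51 to 1.77 CPM) were low. Genes of leukocytes, endothelium, fibroblasts and hepatocytes (PTPRC, CD3E, CDH5, COL3A1, PDGFRB, ALB) stayed at or under 0.13 CPM, PECAM1 and COL1A1 at or under 2.73 CPM and CD68 at or under 11.1 CPM. Earlier results of these data had set apart 4 libraries as far from their groups. They were vehicle replicate 1, Bupleuri Radix medium replicate 2, aconite high replicate 2 and Banhasasim-tang high replicate 2. The rule used is not given here. By root mean square deviation from the group mean, aconite high replicate 2 (0.482) and Banhasasim-tang high replicate 2 (0.451) ranked highest. Bupleuri Radix medium replicate 2 (0.305) and vehicle replicate 1 (0.287) ranked below some kept libraries, such as Banhasasim-tang low replicate 2 (0.31). All but the Bupleuri Radix library also had the highest summed CPM of the genes followed here. Results below that rest on the 4 libraries are given with and without them.

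The mitochondrial ribosomal protein genes were expressed at means of 8.07 to 163 CPM. The lowest were MRPL23 at 8.07 CPM, MRPL54 at 12.7 CPM and MRPS28 at 13.2 CPM, so no protein-coding member lay near the minimum of 1 CPM. Per length, as mean CPM per kb of exon, MRPL12 was highest at 91.8, followed by MRPS35 at 82.6, MRPS34 at 69.7, MRPL51 at 64.9 and MRPL45 at 63.8. MRPL12 encodes a protein of the stalk, where translation factors dock on the large subunit. At the other end stood MRPS11 at 4.92, MRPL46 at 3.54 and MRPL23 at 2.72 CPM per kb. Both subunits spanned this scale alike, with a median of 17.6 CPM per kb over the 51 large-subunit genes and 15.4 over the 26 small-subunit genes. Exon length here is the union of all annotated exons, which lowers the value of genes with long alternative exons.

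**Figure D1:**
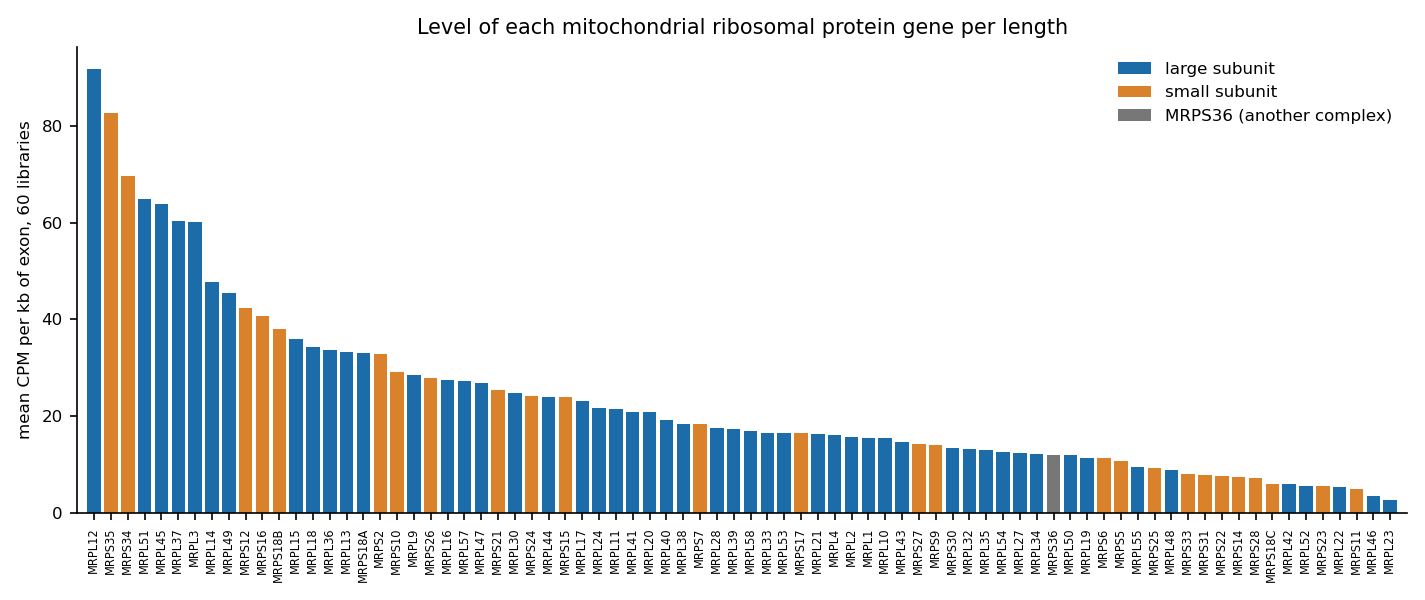
Mean level of each of the 78 genes over 60 libraries, in CPM per kb of exon, ordered from high to low; colours mark the subunit. MRPL12 (91.8), MRPS35 (82.6) and MRPS34 (69.7) lead, and genes of both subunits are found from the top to the bottom of the order.

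Several features of the loci bear on how well a gene can be counted. The genes lie on 21 chromosomes, with no more than 8 on any of them (chromosomes 1, 2 and 17). The table names at least 1 pseudogene for 36 of the 78 genes, most often for MRPS21 with 8, and RSEM shares reads between near-identical copies, so those genes are less certain. Of the pseudogenes themselves, only MRPS31P5 (6.64 CPM) and MRPS31P4 (1.70 CPM) passed 1 CPM. Another coding gene overlapped 13 members on the same strand and 26 on the opposite strand. The libraries were made with a strand-marking kit, but the strand setting of the counting is not given in the sources used here. Members were short: the median exon length was 2539 bases, against 4267 over the 16380 tested genes with a length.

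Head-to-head gene pairs were frequent among them. For 17 of the 78 members (21.8%) another protein-coding gene started within 1000 bases on the opposite strand, pointing away, compared with 9.5% of 12900 tested coding genes. The partners included other mitochondrial genes: MRPS11 and MRPL46 face away from each other on chromosome 15, MRPL36 pairs with the complex I gene NDUFS6 on chromosome 5, and MRPL47 with the complex I gene NDUFB5 on chromosome 3.

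Promoter sequence from RefSeq (GRCh38.p14) was found for 69 of the 78 members, and the 250 bases before the start were searched on both strands. The letters CCGGAAG, the core that ETS-family factors such as GABP bind, were in 33.3% of the member windows and in 11.8% of the windows of 15843 coding genes. The NRF1 motif was in 11.6% against 7.7%, and AANATGGC, the site of YY1, in 7.2% against 3.6%. GABP and NRF1 are known activators of nuclear genes for mitochondrial proteins. GGGCGG (SP1) was as frequent in members (55.1%) as in all coding genes (56.0%), while CCAAT (27.5% against 34.5%) and TATAAA (2.9% against 9.2%) were less frequent in members. The motifs searched do not contain each other. These shares describe letters in the windows, not sites bound in HT29 cells.

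Promoters of 2 members are shown, MRPL58 and MRPS18A, because they had the most CCGGAAG matches among the 7 windows that hold no exon of any GENCODE 29 transcript. Capitals mark CCGGAAG or its reverse complement. The MRPL58 window is chr17:75012420-75012669 on the plus strand, and that of MRPS18A chr6:43687792-43688041 on the minus strand.
MRPL58: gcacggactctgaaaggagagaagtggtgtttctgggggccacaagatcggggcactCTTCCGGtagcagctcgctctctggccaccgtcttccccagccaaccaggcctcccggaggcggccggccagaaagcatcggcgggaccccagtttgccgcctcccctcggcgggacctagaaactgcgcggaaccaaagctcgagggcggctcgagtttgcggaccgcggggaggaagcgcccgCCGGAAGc
MRPS18A: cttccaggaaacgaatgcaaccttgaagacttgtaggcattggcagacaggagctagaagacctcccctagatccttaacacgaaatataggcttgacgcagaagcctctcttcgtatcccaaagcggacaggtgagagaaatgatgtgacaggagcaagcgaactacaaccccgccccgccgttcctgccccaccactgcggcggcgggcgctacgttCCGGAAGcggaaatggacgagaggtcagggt
MRPL58, also known as ICT1, encodes a peptidyl-tRNA hydrolase that is built into the large subunit, and its window held 2 matches, beginning 193 and 8 bases before the start. MRPS18A, whose protein is 1 of the S18 homologues, had 1 match, 31 bases before the start. MRPL4, which had the smallest adjusted p in the dose comparison described further on, had no CCGGAAG match and 4 CCAAT matches in its window.

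Summed over the 78 genes, the level was nearly the same in most libraries. All libraries together ran from 3849 to 6187 CPM with a median of 4215.5 CPM, and only 3 libraries passed 4502 CPM. These were aconite high replicate 2 at 6187 CPM, Banhasasim-tang high replicate 2 at 5775 CPM and vehicle replicate 1 at 5002 CPM. The other libraries of the same groups did not share the rise: aconite high replicates 1 and 3 were at 4213 and 4263 CPM, Banhasasim-tang high replicates 1 and 3 at 4264 and 4191 CPM, and vehicle replicates 2 and 3 at 4351 and 4279 CPM. The 3 group means that rank highest are therefore set by 1 library each: aconite high 4888 ± 1126, Banhasasim-tang high 4743 ± 894 and vehicle 4544 ± 398 CPM (SD, n = 3). The next group in the order, Bupleuri Radix high, was at 4322 ± 71 CPM (SD, n = 3), and Banhasasim-tang low was last at 4038 ± 164 CPM (SD, n = 3). Neighbouring groups in this order did not differ beyond their spread.

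**Figure D2:**
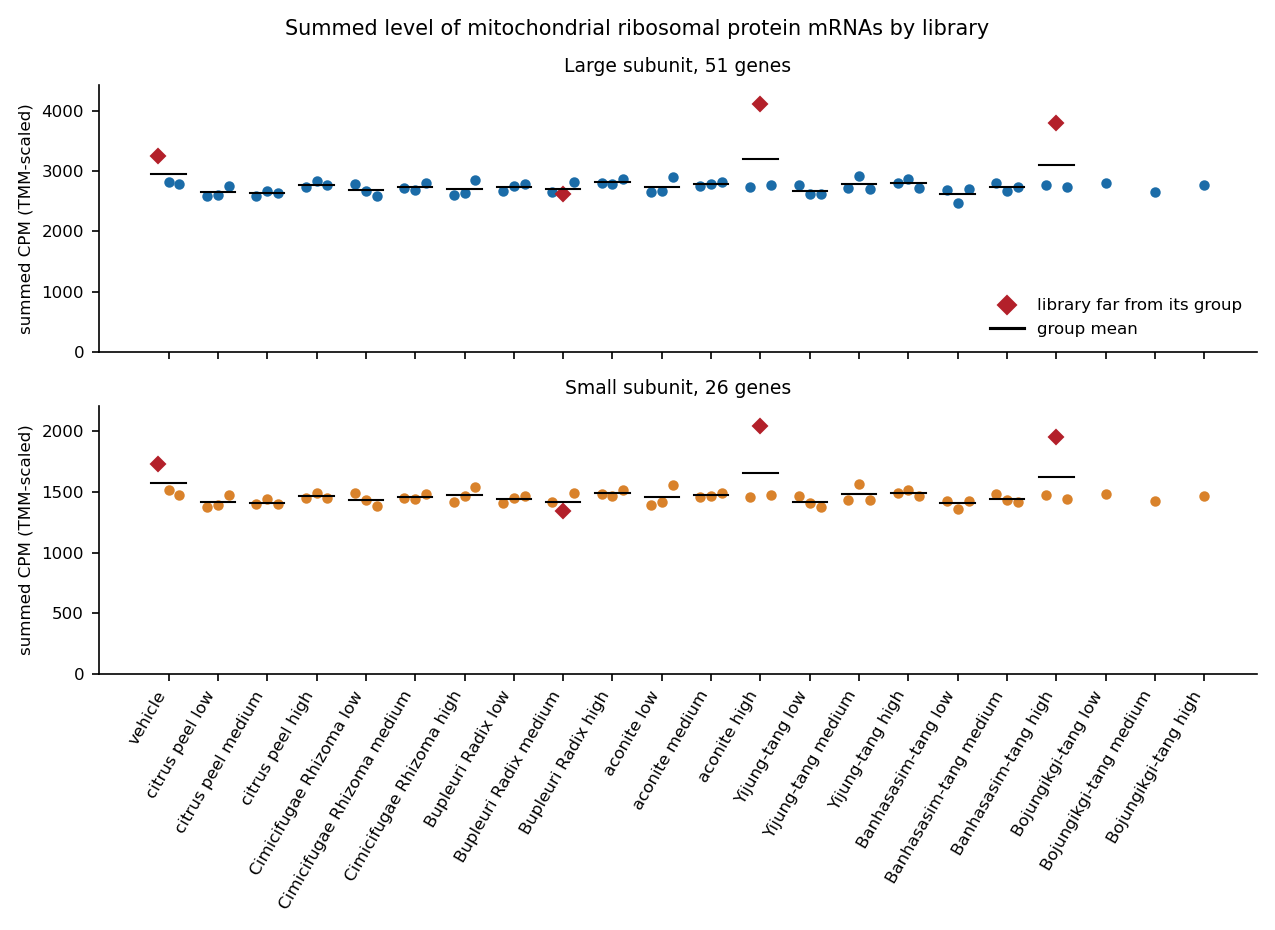
Summed CPM of the 51 large-subunit genes (top) and 26 small-subunit genes (bottom) in each of the 60 libraries. Lines are the mean of each group of 3, and red diamonds are the 4 libraries set apart. Aconite high replicate 2 (4107 and 2044 CPM), Banhasasim-tang high replicate 2 (3794 and 1951 CPM) and vehicle replicate 1 (3251 and 1729 CPM) stand above the rest in both subunits.

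These are shares of the RNA of a whole culture, in which fewer cells of a kind and less RNA per cell cannot be told apart. The 2 subunits moved together. The ratio of large-subunit to small-subunit CPM lay between 1.803 and 2.009 in all 60 libraries, with a median of 1.882. The highest ratio, 2.009, was in aconite high replicate 2, and vehicle replicate 1 (1.881) was at the median. In these 3 libraries nearly the whole family was raised: 77 of 78 genes lay above their group mean in aconite high replicate 2, 76 in Banhasasim-tang high replicate 2 and 73 in vehicle replicate 1. Other short, abundant mRNAs were high there too. The summed CPM of 84 cytosolic ribosomal protein genes was 87664, 81750 and 71419 in these 3 libraries and no more than 60194 elsewhere. Across all tested genes the deviation of these libraries from their groups fell with exon length (Spearman rho across genes -0.28, -0.40 and -0.34), and genes are not independent replicates. The part of transcript length in the raised values was not tested. The median high-against-low difference of the 78 genes was 0.21 for aconite and 0.25 for Banhasasim-tang (log2). With a per-library trend on exon length removed it was 0.21 for both. The medians over all genes were 0.01 and 0 before that removal, and 0.03 and 0.02 after it.

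Gene by gene, the SD between group means was set beside the SD of single libraries within groups. Means of 3 libraries spread less than single libraries even where groups do not differ. A lower value between groups therefore cannot show that the groups were alike. The median SD within groups was 0.141 on the log2 scale (0.142 over all genes tested), and the median SD between the group means was 0.09 (0.10 over all genes tested). The SD between group means was above that within groups in 2 members, MRPS18B (0.092 against 0.062) and MRPL49 (0.056 against 0.053). In 31 comparisons across the 57 libraries, tested with edgeR's quasi-likelihood test and called at a Benjamini-Hochberg adjusted p under 0.05 over 16485 genes, 27 members were called at least once and 51 never. The share of all genes called at least once is not given here, so these counts cannot be set against the whole table. Aconite high against vehicle alone called 15.9% of all genes. Calls of members fell in 7 of the 31 comparisons.

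The first question was whether the genes follow dose. Averaged over the 6 extracts with replicates, high against low dose, 15 of the 78 members rose and none fell. Here a rise means a level above low dose, not above vehicle. Over all genes, 13.1% were called in this comparison and 6.52% were called higher, against 19.2% of the members. The differences were small: the median over the 78 was 0.10 (log2) with a range of 0.02 to 0.18, and the median over all genes was 0. Of the 51 large-subunit genes 9 rose, 8 of them among the 30 with bacterial homologues, and of the 26 small-subunit genes 6 rose.

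MRPL4 (ENSG00000105364, GRCh38 chr19:10251901-10260045, plus strand), which encodes a large-subunit protein lining the tunnel of the nascent chain, had the smallest adjusted p. Its 18 high-dose libraries ran from 61.5 to 90.7 CPM with a median of 69.6, and its 18 low-dose libraries from 54.4 to 72.0 CPM with a median of 62.7. The ranges overlapped over all extracts, but high and low dose did not overlap within 3 of the 6 extracts. In the aconite groups MRPL4 was at 76.7, 84.4 and 72.7 CPM at high dose and at 64.5, 63.7 and 63.9 CPM at low dose. Yijung-tang had 61.7, 62.6 and 62.7 CPM at high dose against 63.1, 58.5 and 56.8 CPM at low dose. The estimate was above 0 in all 6 extracts, from 0.06 for Yijung-tang to 0.31 for Banhasasim-tang, and the mean was 0.17 ± 0.04 (SE, log2; adjusted p = 0.0016, edgeR). Without the 4 libraries it was 0.13 (adjusted p = 0.000223, edgeR).

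MRPS26 (ENSG00000125901, chr20:3045945-3048254, plus strand), which encodes a small-subunit protein found only in mitochondria, came next. High-dose libraries ran from 28.98 to 43.65 CPM with a median of 32.8, medium-dose libraries from 24.4 to 32.9 CPM with a median of 30.4 and low-dose libraries from 26.4 to 31.6 CPM with a median of 30.1. The 2 highest values, 43.7 and 43.6 CPM, belonged to replicate 2 of aconite high and of Banhasasim-tang high. The estimate was above 0 in all 6 extracts and averaged 0.18 ± 0.04 (SE, log2; adjusted p = 0.00308, edgeR), or 0.13 without the 4 libraries (adjusted p = 0.00154, edgeR). In Yijung-tang, where none of the 4 libraries lies, MRPS26 was at 34.71, 34.96 and 35.93 CPM at high dose and at 31.6, 31.2 and 26.6 CPM at low dose, with no overlap.

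MRPS25 (ENSG00000131368, chr3:15042460-15065335, minus strand), for another mitochondria-specific protein of the small subunit, had the same estimate with and without those libraries. It ran from 47.8 to 56.2 CPM with a median of 50.4 at high dose, and from 44.7 to 51.2 CPM with a median of 47.7 at low dose. The vehicle libraries, at 50.7, 51.5 and 49.9 CPM, were near the median of the high-dose libraries and in the upper part of the low-dose range. All 6 extracts had an estimate above 0, and the mean of 0.09 ± 0.02 (SE, log2; adjusted p = 0.00316, edgeR) was also 0.09 without the 4 libraries (adjusted p = 0.00154, edgeR). With no filter on low counts the adjusted p was 0.0773, and the call was lost. MRPS25 overlaps NR2C2 on the opposite strand.

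The same comparison called MRPS18B (0.08 ± 0.02), 1 of 3 proteins homologous to bacterial S18 that mitochondria keep, MRPL34 (0.18 ± 0.05) and MRPS2 (0.12 ± 0.03; SE, log2), with adjusted p of 0.0104, 0.0111 and 0.0113 (edgeR). MRPS18B also lost its call with no filter (adjusted p = 0.126). No single library, left out in turn from the 36 at high and low dose, ended the call of MRPL4, MRPS26, MRPS25, MRPS18B, MRPL34 or MRPS2. The other 9 called members were MRPL2, MRPL18, MRPL55, MRPS5, MRPS21, MRPL21, MRPL17, MRPL58 and MRPL12, with means between 0.09 and 0.18. In all 9 the largest estimate belonged to aconite or Banhasasim-tang, as in MRPL58, where aconite was at 0.46 and Yijung-tang at 0.02. Only in MRPL4, MRPS26 and MRPL17 was the median of the high-dose libraries above that of vehicle. MRPL34 was at 21.2 CPM at high dose against 23.2 CPM in vehicle, and MRPL2 at 40.9 against 43.6 CPM (medians). The medium-dose median lay between those of low and high dose in all called members but MRPL34 and MRPL21, where it was below low dose.

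**Figure D3:**
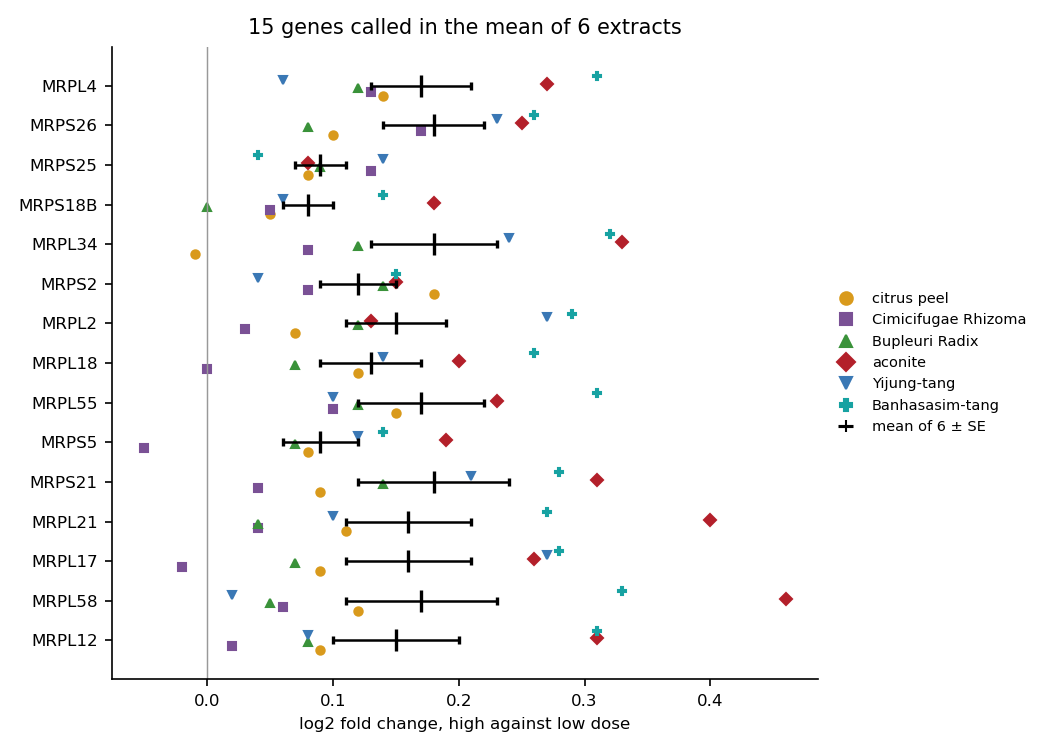
Log2 fold change from low to high dose for the 15 genes called in the mean of 6 extracts; coloured symbols are single extracts and the black bar is the mean with its SE. Means lie between 0.08 (MRPS18B) and 0.18 (MRPS26, MRPL34, MRPS21), and aconite or Banhasasim-tang gives the highest symbol for most genes.

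Leaving out the 4 libraries changed the size of the family-wide difference more than the list of genes. The median over 78 members went from 0.10 to 0.04 (log2), the number above 0 from 78 to 73, and the number called from 15 to 10: MRPL4, MRPS26, MRPS25, MRPS2, MRPS18B, MRPL2, MRPL18, MRPS5, MRPL34 and MRPL55, all of them among the 15. All genes then had 7.72% called higher. Leaving out a single library moved the count by over 1.5 times in 5 cases: 46 and 43 without aconite high replicate 1 or 3, 37 and 45 without Banhasasim-tang high replicate 1 or 3, and 24 without aconite low replicate 3. The shares of all genes called higher rose as well, to 9.7%, 9.4%, 8.28%, 10.2% and 7.22% in that order. Promoter windows were available for 13 of the 15 genes called with all libraries, and CCGGAAG was in 3 of them, MRPL58, MRPS21 and MRPS26.

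Within single extracts the picture differed. Citrus peel, Cimicifugae Rhizoma, Bupleuri Radix, Yijung-tang and Banhasasim-tang each had 0 of 78 members called between high and low dose by edgeR, while 0.0667%, 0.904%, 0.297%, 0.103% and 0.231% of all genes were called. At an unadjusted p under 0.05 these counts were 1, 2, 0, 6 and 47 members, and DESeq2 called 0, 0, 0, 0 and 1. Shares of all genes at an unadjusted p under 0.05 are not given here or below. Such counts therefore cannot be set against the whole table. The median difference was 0.06, 0.01, 0.04, 0.08 and 0.25 (log2) in that order, with 68, 48, 60, 65 and 78 members above 0. In Yijung-tang 17 members (21.8%) had all high-dose libraries above all low-dose libraries, against 8.23% of all genes. Citrus peel had 13 such members (7.81% of all genes), Banhasasim-tang 13 (7.23%), Bupleuri Radix 9 (7.77%) and Cimicifugae Rhizoma 8 (8.14%).

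The members with the smallest p in each of these extracts had the following values. In citrus peel MRPS2 was at 82.6 ± 4.8 CPM at high and 72.8 ± 5.8 CPM at low dose (SD, n = 3), a difference of 0.18 (log2). In Cimicifugae Rhizoma MRPS25 was at 51.3 ± 1.2 against 47.0 ± 2.4 CPM (SD, n = 3), and MRPL23 was on the other side, at 6.66 ± 0.45 against 8.45 ± 1.75 CPM (SD, n = 3). MRPS2 also came first in Bupleuri Radix, at 87.7 ± 4.3 against 79.6 ± 3.5 CPM (SD, n = 3). None of these differences passed the threshold. MRPL52 in Yijung-tang was at 21.4, 17.6 and 18.1 CPM at high dose and at 15.8, 15.0 and 13.8 CPM at low dose, which is 0.35 on the log2 scale without overlap (adjusted p = 0.674, edgeR).

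Banhasasim-tang had the highest median of all, and 1 library carried it. MRPL41, the member with its smallest adjusted p (0.116, edgeR), was at 28.5, 48.6 and 30.8 CPM at high dose and at 26.4, 23.8 and 26.8 CPM at low dose. Replicate 2 alone stood far above the rest, although all 3 high-dose values exceeded the low-dose ones. Without Banhasasim-tang high replicate 2 the median over the 78 members was 0.06 in place of 0.25 (log2). Without replicate 1 or replicate 3 of that group, which leaves replicate 2 in a pair, 14 and 42 members were called, all higher. Calls rose over the whole table too: 3.05% and 9.39% of all genes were then called higher, against 0.091% with all libraries.

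Aconite was the extract with calls of its own. High against low dose, 11 of the 78 members rose and none fell, with a median of 0.21 (log2) and 75 members above 0. That share, 14.1%, stands beside 10.8% of all genes called and 5.81% called higher. Large-subunit genes gave 7 of the 11 and small-subunit genes 4. MRPL3 (ENSG00000114686, chr3:131462212-131502983, minus strand), for a large-subunit protein with a bacterial homologue and among the most abundant members, was at 166, 256 and 172 CPM at high dose and at 160, 159 and 166 CPM at low dose. Replicate 2 was far above the others, and the 3 high-dose values otherwise lay just above those at low dose. The difference was 0.28 ± 0.08 (SE, log2; adjusted p = 0.0147, edgeR), and 0.05 without the 4 libraries (adjusted p = 0.523). MRPL45 (0.32), MRPL58 (0.46), MRPS15 (0.31) and MRPL21 (0.40) were likewise highest in replicate 2, where MRPL45 reached 177 CPM against 116 and 114 CPM in the other high-dose libraries, and none of them was called without the 4 libraries. High and low dose overlapped in MRPL58, MRPS15 and MRPL21. In 9 of the 78 members all high-dose libraries lay above all low-dose libraries, which is near the 9.86% of all genes.

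MRPS18B (ENSG00000204568, chr6:30617709-30626395, plus strand, overlapping PPP1R10 on the other strand) was different. It was at 81.2, 85.8 and 80.8 CPM at high dose and at 70.4, 70.8 and 76.6 CPM at low dose, so that all 3 high-dose libraries stood above the low-dose libraries at about the same height. The difference was 0.18 ± 0.05 (SE, log2; adjusted p = 0.0225, edgeR), and 0.15 without the 4 libraries (adjusted p = 0.013). With no filter on low counts this call was lost (0.19, adjusted p = 0.21, edgeR). MRPL4 was at the threshold and not called with all libraries (0.27 ± 0.09, adjusted p = 0.05) and passed it without the 4 (0.21, adjusted p = 0.0221). MRPS6, a small-subunit protein at the edge of the platform, was at 40.4, 58.1 and 41.4 CPM at high dose and at 49.8, 48.0 and 51.3 CPM at low dose. Replicates 1 and 3 lay below every low-dose library and replicate 2 above them, and without the 4 libraries MRPS6 fell by 0.29 on the log2 scale (adjusted p = 0.00333, edgeR). Those were the 3 members called without the 4 libraries, 2 higher and 1 lower (6.47% and 5.96% of all genes), with a median over the 78 of 0.01.

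**Figure D4:**
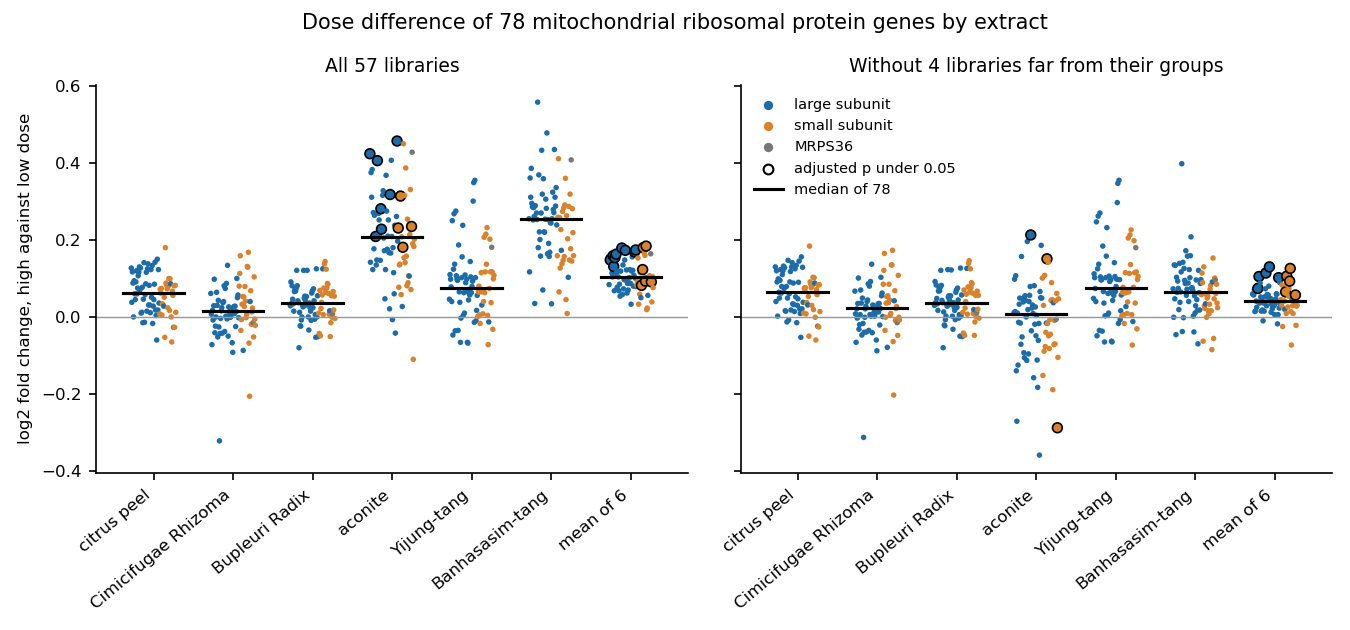
Log2 fold change from low to high dose for the 78 genes in each of 6 extracts and in their mean. Values with all 57 libraries are on the left, and those without the 4 libraries set apart are on the right. Black lines are medians and outlined points passed the threshold. The medians of aconite (0.21) and Banhasasim-tang (0.25) drop to 0.01 and 0.06 on the right, and those of the other 4 extracts stay between 0.02 and 0.07.

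Leaving out aconite high replicate 2 alone had the same effect: the median was 0.00, 1 member was called, and it was lower. Leaving out either of the other high-dose libraries had the opposite effect, with 43 calls without replicate 1 and 33 without replicate 3. Of all genes 11.2% and 10.4% were then called higher. Among the low-dose libraries, 1 member was called without replicate 1 and 0 without replicate 2, so MRPS18B too lost its call without aconite high replicate 2 or either of these. Of all genes 3.6% and 3.33% were called higher without low-dose replicate 1 or 2. When the model used the aconite high and low libraries only, so that the spread came from these 6, 0 members were called. The shares of all genes were then 0.454% called higher and 0.341% called lower.

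In the pair of extracts that shared library set 6, aconite was compared with Bupleuri Radix at high dose, and 6 of the 78 members were higher (9.85% of all genes called, 5.9% called higher). They were MRPL3, MRPL21, MRPS35, MRPL45, MRPL1 and MRPS15, with differences of 0.24 to 0.42 (log2). MRPL3 was at 159, 163 and 167 CPM in Bupleuri Radix high, which lies below aconite high replicates 2 and 3 and overlaps replicate 1. None of the 6 was called without the 4 libraries, and 1 member was then called lower. Single libraries decided this count: it was 0 without Bupleuri Radix high replicate 1 or 2 or aconite high replicate 2, 3 without Bupleuri Radix high replicate 3, and 27 and 22 without aconite high replicate 1 or 3. The test of the difference itself, the dose effect of aconite against that of Bupleuri Radix, called 0 members by edgeR and 0 by DESeq2, while edgeR called 1.8% of all genes. At an unadjusted p under 0.05 there were 12 members. No member was called between Cimicifugae Rhizoma and citrus peel or between Banhasasim-tang and Yijung-tang at high dose (0.886% and 0.346% of all genes), with 0 and 8 at an unadjusted p under 0.05, and DESeq2 called 0 in both. The differences of dose effects in those 2 pairs had 0 calls by either tool, while edgeR called 0.115% and 0.0% of all genes. At an unadjusted p under 0.05 there were 0 and 7 members.

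Against vehicle, the members were mostly lower. Their median was below 0 in 16 of 18 comparisons of extract and dose with vehicle, down to -0.20 (log2) in citrus peel medium. The 18 comparisons share the 3 vehicle libraries, 1 of which, replicate 1, is among the 4 set apart. Without the 4 libraries the medians at high dose were -0.03 for citrus peel, -0.06 for Cimicifugae Rhizoma, -0.01 for Bupleuri Radix, -0.05 for aconite, -0.01 for Yijung-tang and -0.06 for Banhasasim-tang, in place of -0.12, -0.14, -0.08, 0.08, -0.06 and 0.05. At medium and low dose they were then -0.01 to -0.11, in place of -0.11 to -0.20.

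Few members passed the test against vehicle. In Banhasasim-tang low 4 of 78 fell (2.92% of all genes called, 1.53% called lower), in Yijung-tang low 2 (1.51%, 0.965% lower) and in Banhasasim-tang medium 1 (3.07%, 1.7% lower). MRPS18B was in both low-dose lists. It was at 79.9, 72.3 and 74.8 CPM in vehicle, at 63.7, 62.1 and 63.8 CPM in Banhasasim-tang low and at 64.1, 66.1 and 63.7 CPM in Yijung-tang low. Neither low-dose group overlapped vehicle. It fell by 0.26 on the log2 scale in Banhasasim-tang low (adjusted p = 0.00476, edgeR) and by 0.22 in Yijung-tang low (adjusted p = 0.0252, edgeR), and without the 4 libraries by 0.23 and 0.19 (adjusted p = 0.00202 and 0.013). Without vehicle replicate 1 neither was called (adjusted p = 0.0946 in Banhasasim-tang low and 0.332 in Yijung-tang low), and the MRPS18B call in Yijung-tang low also ended without any 1 of its 3 libraries and with the trend on exon length removed (-0.14, adjusted p = 0.103).

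Several other members called lower had their highest value in vehicle replicate 1. MRPL54 was at 23.1, 16.16 and 13 CPM in vehicle and at 10.5, 9.70 and 12.7 CPM in Banhasasim-tang low (-0.65, log2; adjusted p = 0.0488, edgeR). MRPL23 was at 11.4, 9.46 and 8.65 CPM in vehicle against 6.27, 5.88 and 7.31 CPM (-0.58, adjusted p = 0.0439). Neither call held without the 4 libraries (adjusted p = 0.067 and 0.0568). MRPL2 (-0.39, adjusted p = 0.0377) kept its call without the 4 libraries (-0.29, adjusted p = 0.043). MRPL52 in Yijung-tang low, at 15.8, 15.0 and 13.8 CPM against 23.5, 20.5 and 19.6 CPM in vehicle, fell by 0.49 (adjusted p = 0.0391) and by 0.43 without the 4 libraries (adjusted p = 0.028). MRPL34 fell by 0.41 in Banhasasim-tang medium (adjusted p = 0.0483, edgeR), and by 0.32 without the 4 libraries (adjusted p = 0.0392). Leaving out vehicle replicate 1 alone, which leaves 2 vehicle libraries, ended the calls of all of these genes. Without vehicle replicate 3 there were 8 calls in Banhasasim-tang low, 7 in Yijung-tang low and 4 in Banhasasim-tang medium, and without any other single library at most 1 in each.

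Aconite high against vehicle turned direction with the libraries used. With all libraries 5 of 78 members were higher and 0 lower (15.9% of all genes called, 8.58% called higher): MRPL3 (0.32), MRPL45 (0.30), MRPL19 (0.22), MRPL30 (0.23) and MRPL35 (0.22; log2). Without the 4 libraries none of these was called, and 2 others were higher and 7 lower. Of all genes 9.4% were then called higher and 8.36% lower. In both settings the shares of the members lay near or below those of all genes. MRPS11 then fell by 0.39 (adjusted p = 0.000469, edgeR), MRPL54 by 0.57 (adjusted p = 0.00224) and MRPS6 by 0.30 (adjusted p = 0.00381), followed by MRPL16, MRPL27, MRPL14 and MRPL44, while MRPL10 (0.17) and MRPL4 (0.20) were higher. Without aconite high replicate 2 alone 10 members were called, all lower (8.79% of all genes called lower). Without aconite high replicate 1 or 3 there were 16 and 13 calls, all higher (10.6% and 9.54% of all genes called higher). Without vehicle replicate 2 or 3 there were 1 and 3 calls (5.77% and 7.04% of all genes called higher). The remaining 14 comparisons with vehicle had 0 members called by edgeR, while 0.0% to 4.67% of all genes were called. That background was 0.0243%, 0.0% and 0.00607% in citrus peel at high, medium and low dose, 1.33%, 0.0303% and 0.0% in Cimicifugae Rhizoma, 1.52%, 0.406% and 0.795% in Bupleuri Radix, 4.67% and 1.61% in aconite medium and low, 1.14% and 1.64% in Yijung-tang high and medium, and 1.21% in Banhasasim-tang high. The nearest to the threshold was MRPL23 in Cimicifugae Rhizoma high, at 6.33, 6.48 and 7.17 CPM against 11.4, 9.46 and 8.65 CPM in vehicle (-0.55, adjusted p = 0.0504). DESeq2, run for the high doses, called 1 member in Cimicifugae Rhizoma, 1 in Bupleuri Radix, both lower, and 0 in citrus peel, Yijung-tang and Banhasasim-tang. Unadjusted p under 0.05 gave between 4 and 27 members in those 14 comparisons, with no share of all genes to set beside them.

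Bojungikgi-tang had 1 library per dose, so its values have no replicate check. The median of the log2 ratio of the 78 members to the vehicle mean was -0.11 at high, -0.15 at medium and -0.08 at low dose. At high dose the lowest members were MRPL34 (-0.42), MRPL55 (-0.40) and MRPS36 (-0.36), and the highest were MRPS30 (0.24), MRPL19 (0.21) and MRPS25 (0.19). At high dose 37 of the 78 members lay below all 3 vehicle libraries and 9 above them, against 32.6% and 32.0% of all genes. Its summed CPM, 4259, 4099 and 4311 at high, medium and low dose, lay among those of the other extracts.

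The rest of the pathway was followed through lists chosen by function. In the mean of 6 extracts, high against low dose, 7 of 26 genes for assembly of the mitochondrial ribosome rose, 1 of 18 mitochondrial translation factors, 1 of 5 further ribosomal proteins with other symbols and 1 of 9 tested regulators of such promoters, beside 6.52% of all genes called higher. The rRNA methyltransferase MRM2 led the assembly genes with 0.16 ± 0.03 (SE, log2; adjusted p = 6.5e-05, edgeR), ahead of NGRN (0.09), MRM1 (0.11) and MPV17L2 (0.11). TUFM, the elongation factor that brings tRNA to the ribosome, rose by 0.10 (adjusted p = 0.00973), DAP3, a GTP-binding protein of the small subunit, by 0.07 (adjusted p = 0.0326), and MYC by 0.12 (adjusted p = 0.000296). Without the 4 libraries the counts were 5 higher and 1 lower of 26, 2 of 18, 0 of 5 and 2 of 9, beside 7.72% of all genes called higher. For comparison, 5 of 84 cytosolic ribosomal protein genes rose and 3 of 82 nuclear genes of the respiratory chain and ATP synthase, with medians of 0.12 and 0.11 beside 0.10 for the mitochondrial ribosomal proteins; these 2 shares, and that of the translation factors, do not exceed that of all genes.

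The mRNAs that the mitochondrial ribosome translates did not follow its protein genes. In aconite high the 13 mitochondrially encoded mRNAs summed to 45228, 43600 and 29877 CPM, and in aconite low to 100615, 71585 and 63587 CPM. Vehicle was at 92348, 75423 and 83179 CPM, and the lowest library outside aconite high was at 63587 CPM. All 3 aconite high libraries were thus low, replicate 2 among them, while the summed ribosomal protein CPM of replicates 1 and 3 stayed at the level of the other groups. Of the 13 mRNAs 11 fell in aconite high against low (5.03% of all genes were called lower), with a median of -0.98 (log2). MT-ND4 of complex I fell by 1.41 (adjusted p = 6.74e-09), MT-ATP6 of ATP synthase fell by 1.25 (adjusted p = 2.04e-06), MT-CO3 fell by 1.2 (adjusted p = 6.13e-09) and MT-CO1 fell by 0.98 (adjusted p = 9.68e-09, all edgeR), the last 2 being subunits of cytochrome c oxidase. Without the 4 libraries the count was again 11 of 13, with a median of -1.04. Without aconite low replicate 1, the highest of the low-dose libraries, it was 7 of 13 (median -0.82). With a model of the aconite high and low libraries only, 1 of 13 was called (median -0.99), and with the replicate number as a block in that model 0 (median -1). Compared with Bupleuri Radix at high dose 11 of 13 were lower in aconite (median -1.14; 3.95% of all genes called lower), and the dose effects of the 2 extracts differed in 7 of 13, lower in aconite (0.789% of all genes). The other extracts had 0 of 13 called between high and low dose, except 1 higher in Yijung-tang.

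**Figure D5:**
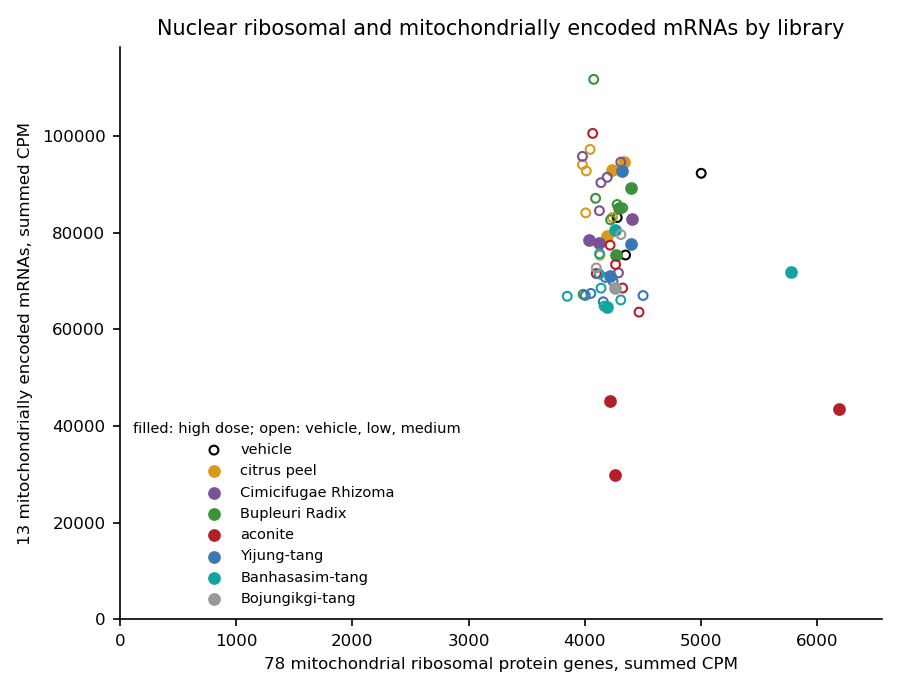
Summed CPM of the 13 mitochondrially encoded mRNAs against summed CPM of the 78 nuclear ribosomal protein genes in 60 libraries, coloured by extract; filled points are high dose, open points vehicle, low and medium dose. The 3 aconite high libraries lie at 29877 to 45228 CPM on the vertical axis, below all others, while 2 of them have ribosomal protein sums of 4213 and 4263 CPM, within the main cluster.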

How the data were processed

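The authors deposited expected counts per gene, estimated by RSEM and not normalized; 8.68% of the values were not whole, and all were rounded before testing. Per the submitters' processing notes, FastQC 0.11.9, Trim Galore 0.6.5, STAR 2.7.3a, RSEM 1.3.3 and GRCh38 were used; which annotation release and which counting options were chosen is not given in the sources used here. The table has 270 columns, of which 60 matched labelled samples and 210 were not used.

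The mean CPM that chose the members is relative to the library total. All other CPM values are TMM-scaled over the 60 libraries. Differences were fitted with edgeR 4.0.16 (R 4.3.3), using the quasi-likelihood test after filterByExpr, in 1 model of 57 libraries and 19 groups without covariates (biological coefficient of variation 8.04%). Benjamini-Hochberg adjustment ran over 16485 genes with a threshold of 0.05. Ratios for Bojungikgi-tang are log2 of CPM + 1. Gene types, coordinates and exon lengths come from GENCODE 29 (57055 of 60675 identifiers found). Symbols come from a separate list of gene names, which gave a symbol for 56558 identifiers.

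Named genes are, per comparison, up to 6 called members with the smallest adjusted p in each direction or, with none called, the 2 with the smallest p, plus the extremes of level per length; MRPL4 and MRPS6 in aconite, and the members called against vehicle without the 4 libraries, were chosen after their values were seen. Members and lists were chosen with earlier results of these data known. Alternatives were RLE scaling, DESeq2 1.42.0, no filter, the compared groups only, a replicate block, a per-library trend on exon length and leaving libraries out. The procedure was tested on simulated data.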

Additional observations from a re-analysis of the deposited data

How the results depend on the processing

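The numbers of mitochondrial ribosomal protein genes called are given here by setting, and the causes were not tested. Shares of all genes called moved with the setting too. In the mean of 6 extracts 6.52% of all genes were called higher, 3.76% with no filter and 8.63% with DESeq2. In aconite high against low that share was 5.81%, 8% with the trend on exon length removed, 3.32% with no filter and 7.36% with DESeq2. In aconite high against vehicle it was 8.58%, and 11.7% with that trend removed. Banhasasim-tang high against low had 0.091%, 2.56% with no filter and 0.79% with DESeq2. Where no share is given, a count cannot be set against the whole table. RLE scaling moved no count by over 1.5 times (17 in the mean of 6 extracts, 14 in aconite high against low). Without the 4 libraries set apart the counts were 3 in aconite high against low and 9 in aconite high against vehicle. They were 2 each in aconite medium and Banhasasim-tang low against vehicle, and 1 in aconite against Bupleuri Radix. With the trend on exon length removed they were 21 and 16 in aconite high against low and vehicle, 12 in aconite against Bupleuri Radix, 1 each in Cimicifugae Rhizoma high, Yijung-tang low and Banhasasim-tang low against vehicle, 1 in Banhasasim-tang against Yijung-tang and 0 in Banhasasim-tang medium. With no filter on low counts they were 42 in the mean of 6 extracts, and 32 in Banhasasim-tang and 24 in aconite high against low. They were 1 in Yijung-tang high against low (0.369% of all genes called higher) and 16 in aconite against Bupleuri Radix. Banhasasim-tang against Yijung-tang had 5, and the difference of their dose effects 1. Against vehicle at high dose they were 8 in aconite (3.3% of all genes called higher, 2.96% lower). Those called lower were 5 in Cimicifugae Rhizoma (0.938% of all genes), 2 in citrus peel (0.603%), 2 in Bupleuri Radix (1.27%) and 1 in Yijung-tang (0.814%). DESeq2 gave 29 in the mean of 6 extracts, 21 in aconite and 1 in Banhasasim-tang high against low, 11 in aconite against Bupleuri Radix, and 1 each in Cimicifugae Rhizoma and Bupleuri Radix high against vehicle. With the compared groups only, which leaves fewer libraries to estimate the spread, the counts were 0 in aconite high against low, against vehicle and against Bupleuri Radix. They were 1 in Yijung-tang high against low (0.292% of all genes called higher) and 10 in the mean of 6 extracts (5.35%).

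Samples with the same replicate number were taken as paired only where the correlation of their deviations from the group means was over 0.1 at all 3 numbers, and no comparison met this; in citrus peel high against low the correlations were 0.061, 0.063 and 0.064. The libraries of set 5 do differ by number in 1 gene: RN7SL2 was at 66.97 to 113.5 CPM in the 6 libraries of replicate 3 and at 3.44 to 9.9 CPM in the 12 others. The replicate block left the count at 0 in both dose comparisons of that set. With the replicate block, the counts were 0 in aconite high against low, against vehicle and against Bupleuri Radix. They were 6 in Yijung-tang high against low (1.03% of all genes called higher) and 10 in the mean of 6 extracts (5.24%).

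Leaving out 1 library at a time gave 10 to 46 in the mean of 6 extracts, 0 to 43 in aconite and 0 to 42 in Banhasasim-tang high against low, 0 to 27 in aconite against Bupleuri Radix, 0 to 3 in Banhasasim-tang against Yijung-tang and 0 to 2 in the difference of dose effects of aconite and Bupleuri Radix. Against vehicle it gave 1 to 16 in aconite high, 0 to 2 in aconite medium, 0 to 8 in Banhasasim-tang low, 0 to 4 in Banhasasim-tang medium, 0 to 1 in Banhasasim-tang high, 0 to 7 in Yijung-tang low, 0 to 1 in Yijung-tang medium, 0 to 1 in Bupleuri Radix high, 0 to 1 in Bupleuri Radix medium and 0 to 1 in Cimicifugae Rhizoma high. Of the members named for the smallest p in each comparison with all libraries, none changed sign under a setting where either value was called. The members named for their calls in aconite high against vehicle without the 4 libraries were not part of that check. Among these, MRPL16 was called lower. With all libraries it was above every vehicle library in aconite high replicate 2 and below every vehicle library in replicates 1 and 3. The median over the 78 genes did change sign in aconite high against vehicle, from 0.08 to -0.05 without the 4 libraries and -0.14 without aconite high replicate 2, in Banhasasim-tang high against vehicle, from 0.05 to -0.06 without the 4 libraries and -0.13 without its replicate 2, and in Cimicifugae Rhizoma high against low, from 0.01 to -0.03 without high replicate 3.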
